A study of Mus musculus with 78 samples.

Results

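The 10 genes described here, Slc2a1, Slc2a3, Hk1, Pfkl, Slc16a1, Ldha, Ldhb, Pdha1, Fbp1 and Fbp2, carry mouse blastomeres' use of pyruvate, lactate and glucose. They were chosen by name, through their Entrez identifiers, and all 10 are listed in both gene tables, which hold 15218 genes for the 4-cell stage and 15342 for the 8-cell stage. The blastomeres were sequenced in full-length RNA-seq with a lineage marker read from the same library. The gene tables hold 24 columns for 4-cell-stage and 26 columns for 8-cell-stage blastomeres, each column being 1 blastomere and each value an FPKM, a fragment count scaled by gene length and by the library's fragment total. The column names tie no column to an embryo or to a lineage, so each stage was taken as 1 sample and no test was run. Blastomeres of an embryo share their source and are not replicates of a stage. Ranges, medians and counts of blastomeres are given in place of errors.

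Embryos of both stages came from a cross of mice with the CAG-Brainbow2.1 cassette at the ROSA26 locus and mice of the line Tg(CAG-cre/Esr1*)5Amc/J, so that every embryo carried the fluorescent cassette and the tamoxifen-inducible Cre, which the CAG promoter drives in all cells. All were collected as 2-cell embryos 46 hours after injection, treated with 4-hydroxytamoxifen for 2 hours and grown in KSOM medium, and no untreated or Cre-free embryo is part of the comparison. By the labels, 36 blastomeres of 9 embryos were taken at the 4-cell stage and 31 blastomeres of 4 embryos at the 8-cell stage. Of these, 24 and 26 were placed in a lineage, the same numbers as the columns.

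Cleavage-stage mouse embryos are known to live first on pyruvate and lactate, and to take up and break down more glucose as they approach the blastocyst. Lactate and pyruvate enter through monocarboxylate carriers, lactate dehydrogenase interconverts them, and the pyruvate dehydrogenase complex commits pyruvate to mitochondrial oxidation. Glucose enters through facilitative carriers, hexokinase traps it in the cell and phosphofructokinase commits it to glycolysis, a step that fructose bisphosphatase runs backwards.

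The genes lie on several chromosomes of GRCm38.p6, the assembly behind the mm10 build the reads were aligned to. Among the pyruvate and lactate genes, Slc16a1 is at chr3:104638664-104658462 on the plus strand, Ldha at chr7:46842274-46855627 on the plus strand, Ldhb at chr6:142490249-142507957 on the minus strand and Pdha1 at chrX:160122219-160138430 on the minus strand. Among the glucose genes, Slc2a1 is at chr4:119108745-119137330 on the plus strand, Slc2a3 at chr6:122727809-122802363, Hk1 at chr10:62268855-62379920 and Pfkl at chr10:77986947-78009807, these last on the minus strand. The fructose bisphosphatase genes are neighbours on the minus strand of chromosome 13, Fbp2 at chr13:62836884-62858400 and Fbp1 at chr13:62864753-62888298, with 6352 bases between them. All 10 are protein-coding, and a value sums over a gene's exons, untranslated regions included.

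These neighbours encode isoforms of the same enzyme and were at opposite ends of the levels measured below, so 250 bases before the start that the RefSeq promoter table gives each gene are shown. They are read 5′ to 3′ on the gene's strand from that table, on GRCm38.p6, with motif matches in capitals. The Fbp2 stretch is chr13:62858401-62858650 and the Fbp1 stretch is chr13:62888283-62888532. The start used for Fbp1 lies within the gene's outer bound given above, so the last 16 bases of its stretch fall inside that bound, and distances are counted from the start used.
Fbp2: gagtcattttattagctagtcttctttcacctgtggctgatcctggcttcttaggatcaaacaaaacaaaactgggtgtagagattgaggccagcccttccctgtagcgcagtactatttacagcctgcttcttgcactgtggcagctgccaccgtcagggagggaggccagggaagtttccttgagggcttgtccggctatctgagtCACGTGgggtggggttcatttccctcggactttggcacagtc
Fbp1: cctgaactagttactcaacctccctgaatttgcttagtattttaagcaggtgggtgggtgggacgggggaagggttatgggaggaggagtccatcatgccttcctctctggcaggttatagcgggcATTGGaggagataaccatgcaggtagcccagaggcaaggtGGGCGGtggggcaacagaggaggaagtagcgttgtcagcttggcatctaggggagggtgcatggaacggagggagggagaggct
In the Fbp2 stretch the capitals mark an E-box, CACGTG, 42 to 37 bases before the start. In the Fbp1 stretch they mark a CCAAT box on the opposite strand, 124 to 120 bases before the start, and a GC box, GGGCGG, 84 to 79 bases before it. Both strands were searched for these letters and for the TATA box TATAAA, and no 2 matches overlapped. Of 32841 RefSeq promoter windows of the same length, 6.02% held CACGTG, 33.9% CCAAT, 32.7% GGGCGG and 12.4% TATAAA. CpG pairs numbered 5 in each of these stretches, against a median of 6 over all windows. Among the other members the CpG-rich end was held by Slc16a1 with 37 pairs and by the first Ldha promoter with 25, and an E-box was found in both, 1 in Slc16a1 and 2 in Ldha. Hk1 has a promoter with 14 pairs and a second one with 1. Slc2a3 was not in the table. A match is a description of letters and not a site.

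Before the values, some libraries need to be set apart. Most low FPKM values, 90.8% to 96.4% per blastomere within 0.1 of a fragment, are whole multiples of what 1 fragment is worth, and from them the FPKM denominators, in units of 1e+06 fragments, came to 6.87 to 16.9 for 4-cell blastomeres and 2.33 to 21.7 for 8-cell ones. The 2.33 is that of 1 gene-poor blastomere, and the next lowest was 12.6. In 3 of 24 and 3 of 26 blastomeres, called gene-poor here, fewer than 5000 genes were above FPKM 1 (3009 to 4939 and 3548 to 4963). In 4 other 4-cell blastomeres the chromosome X genes, Pdha1 left out, held 0.0354% to 0.0629% of all FPKM, against 2.83% to 5.35% in the other 20 and 2.71% to 5.28% at the 8-cell stage. These 4 had 6722 to 7912 genes above FPKM 1. Of the 8-cell columns 5 are named NA, the label that unresolved blastomeres also carry. No pair of columns held identical values. Glycolytic genes in general use were also listed at 0 in places, Gapdh in 1 column of each stage, Pgk1 in 6 of each and Tpi1 in 9 and 16. A transcript missing from a blastomere and one lost before sequencing or in alignment therefore cannot be told apart, and a 0 is given below as a listed value. Of the blastomere markers, Dppa3, Sall4 and Tead4 were above FPKM 1 in all 50 columns. Pou5f1, Zfp42, Tfap2c and Zp3 were above it in 21, 20, 23 and 22 of 24 and in 26 of 26. Nanog was above it in 18 of 24 and 21 of 26 and Gdf9 in 13 and 9, and Sox2 was not in either table. Of 7 cumulus and granulosa cell markers, Amhr2 alone had levels, 9.03 to 104 and 3.65 to 111 FPKM, and the others summed to at most 3.06. Fibroblast and blood markers summed to at most 0.0115 FPKM.

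**Figure D1:**
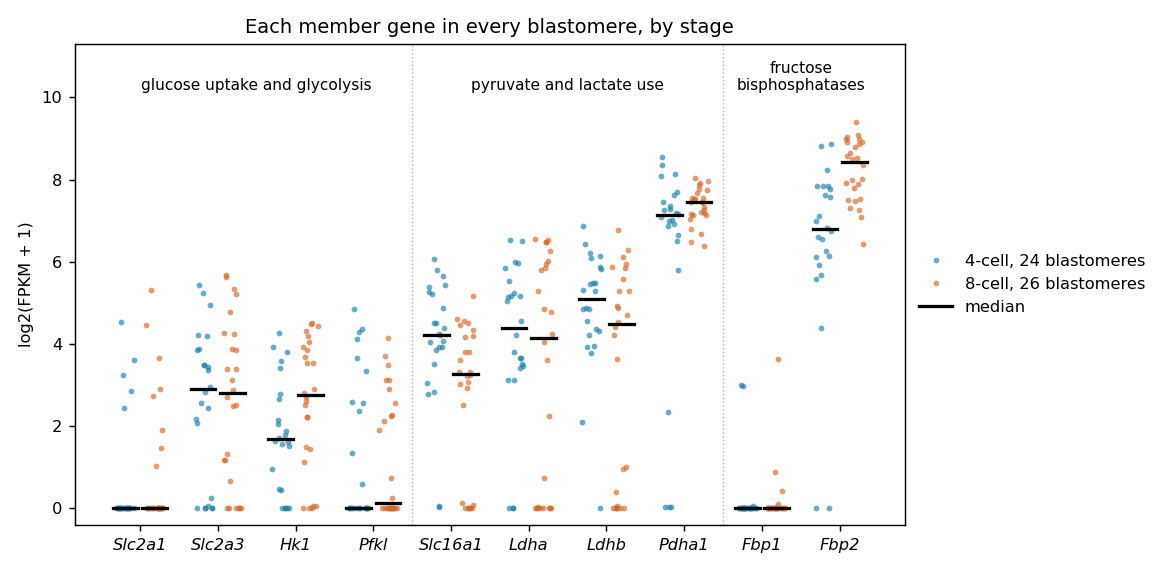
Level of each member gene, as log2(FPKM + 1), in each of 24 4-cell and 26 8-cell blastomeres; points are blastomeres and bars are medians. The medians of Pdha1 and Fbp2 lie above those of the 4 glucose genes at both stages, and many genes have a separate set of blastomeres at 0.

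By median, Slc16a1, Ldha, Ldhb and Pdha1 each stood above each of Slc2a1, Slc2a3, Hk1 and Pfkl at both stages. At the 8-cell stage the closest medians were 8.72 FPKM for Slc16a1 and 6.00 for Slc2a3. Pdha1 and Fbp2 were the most abundant members. In 13 of 24 4-cell blastomeres Pdha1 was the highest of the 10, in 10 it was Fbp2 and in 1 it was Ldha. Fbp2 was the highest in 21 of 26 8-cell blastomeres and Pdha1 in 5. Between 3 and 9 of the 10 genes were above FPKM 1 in a blastomere, with a median of 7 at each stage. Within a blastomere, the mean log2(FPKM + 1) of Slc16a1, Ldha, Ldhb and Pdha1 less that of Slc2a1, Slc2a3, Hk1 and Pfkl was 1.09 at the lowest, 2.95 at the median and 4.83 at the highest at the 4-cell stage. It was -1.55, 2.62 and 4.43 at the 8-cell stage. The difference was above 0 in all 24 4-cell and in 23 of 26 8-cell blastomeres, and the stages overlapped. Without the 4 blastomeres low in chromosome X transcripts the 4-cell median was 3.11 and the lowest value 2.18. The pyruvate and lactate side alone had medians of 4.85 and 4.56 by stage, and the glucose side 1.51 and 1.96. Pdha1 weighs most on the first side, with a mean log2(FPKM + 1) of 6.19 and 7.36 by stage. The next highest was Ldhb, at 4.85 and 3.34, and the difference without Pdha1 was not calculated.

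Between the stages, 4 of the 10 members passed a 2-fold difference of mean log2(FPKM + 1). Fbp2 and Pdha1 were higher at the 8-cell stage and Slc16a1 and Ldhb lower, and the other 6 did not pass. Without the 4 blastomeres low in chromosome X transcripts the Pdha1 difference was 0.05. Between medians of log2 values Slc16a1 (-0.95), Ldhb (-0.61) and Pdha1 (0.32) fell short of 2-fold. Of 13041 genes listed in both tables and above FPKM 1 somewhere, 4.75% passed toward the 8-cell stage and 7.05% toward the 4-cell stage. The median difference of the members was 0.0039, and that of all genes -0.06. The ranges of the stages overlapped for all 10 members. The share of all genes with such overlap was not counted, so this sets the members apart from no other gene. These are differences between 2 sets of blastomeres with no replicate check.

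The monocarboxylate carrier Slc16a1, known as MCT1, ran from 0.0228 through a median of 17.8 to 66.6 FPKM at the 4-cell stage, and from 0 through 8.72 to 35.2 at the 8-cell stage. It was above FPKM 1 in 22 of 24 and in 19 of 26 blastomeres. Among those, the median was 18.9 at the 4-cell stage and 12.9 at the 8-cell stage. All the 8-cell values lay within or below the range of the 4-cell stage, and the log2 difference, 8-cell minus 4-cell, was -1.30. Taken between medians of log2 values in place of means it was -0.95, short of 2-fold. The 4 blastomeres low in chromosome X transcripts were on the high side for this gene, at 37.5 to 49.8 FPKM, and without them the difference was -1.02. Bsg, the chaperone that brings the carrier to the membrane, was above FPKM 1 in every blastomere of both stages, with medians of 121 and 175 FPKM. The carrier Slc16a3, by contrast, was above 1 in 5 of 24 and 5 of 26.

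Ldhb, the lactate dehydrogenase subunit abundant in heart, had the lowest stage difference of the members. Its values ran from 0 through 33.3 to 116 FPKM at the 4-cell stage and from 0 through 21.3 to 108 at the 8-cell stage, with a log2 difference of -1.51. The blastomeres above FPKM 1 were at like levels and were fewer at the 8-cell stage. Ldhb was above FPKM 1 in 23 of 24 4-cell and in 16 of 26 8-cell blastomeres, with medians among those of 37.995 and 37.96 FPKM. Leaving out the gene-poor blastomeres, it was in 21 of 21 and 16 of 23, and the difference was -1.37. Between medians of log2 values it was -0.61. Of 54 windows of 100 bases within its exons, 5 matched elsewhere in the genome as well as at home, so reads from them could be lost, since uniquely aligned reads alone were counted. The other 9 members had no such window. Windows with a match elsewhere within 20 points of the alignment score at home were 55.6% for Ldhb and 25% for Ldha. For the rest they were at most 1.06%.

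Ldha, the subunit abundant in muscle, ran from 0 through 20.1 to 92.1 FPKM at the 4-cell stage and from 0 through 16.8 to 93.2 at the 8-cell stage. It was above FPKM 1 in 21 of 24 and in 16 of 26, and the median among those was 32.3 and 55.4 FPKM. The log2 difference was -0.81, short of 2-fold. It passed 2-fold, at -1.55, with a pseudocount of 0.1, which weighs the blastomeres at 0 more. It also passed at -1.03 rescaled to an equal sum of 1e+06 per blastomere and at -1.04 without the columns named NA. That sum is above every listed one, so the pseudocount of 1 weighs less there, and with size factors the difference was -0.75. It was -0.24 between medians of log2 values and -0.58 without the blastomeres low in chromosome X transcripts. The mean FPKM ran the other way, at 29.4 and 31.4 by stage. The enzyme is a tetramer that these subunits can form together. Ldhb was higher than Ldha in 17 of 24 4-cell blastomeres and lower in 6, while at the 8-cell stage it was higher in 10 of 26 and lower in 11. Both were above FPKM 1 in 21 of 24 blastomeres at the 4-cell stage, and in 12 of 26 at the 8-cell stage. Of the other 8-cell blastomeres, 4 had Ldha alone above FPKM 1, 4 had Ldhb alone and 6 had neither, of which 2 were gene-poor. All 6 had Pdha1 and Fbp2 above FPKM 1, as had all 26 8-cell blastomeres. Ldhc, the testis form, was above 1 in 15 of 24 and 5 of 26, and its log2 difference was -1.53.

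Pdha1 encodes the catalytic E1 alpha subunit of pyruvate dehydrogenase and lies on chromosome X. At the 4-cell stage it ran from 0.0215 through 139 to 373 FPKM, and at the 8-cell stage from 82.1 through 174 to 261. The log2 difference of 1.17 rests on the 4 blastomeres low in chromosome X transcripts. There Pdha1 was at 0.0215, 0.0232, 0.0237 and 4.11 FPKM, the first 3 worth about 1 fragment each, and in the other 20 it was between 54.9 and 373. Without them the 4-cell median was 149 FPKM and the log2 difference 0.05, so that the 2-fold difference was lost. The exons of Pdha1 and of the protein-coding Map3k15 share 598 bases, where reads from either cannot be told apart without strand. Map3k15 reached at most 3.55 FPKM in 4-cell and 8.42 in 8-cell blastomeres. Leaving out any single blastomere gave 0.90 to 1.27, the lowest value coming from leaving out 1 of these 4.

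In those 4 blastomeres, 155 of 206 chromosome X genes with a median above FPKM 1 in the other 20 were at or below 1 in every one, against 84 of 6507 autosomal genes. The ribosomal protein gene Rps4x was at 0 to 0.171 FPKM there and at 295 to 1370 in the other 20. The Y-linked helicase gene Ddx3y was at 0.675, 14.02, 18.9 and 21.99 FPKM, and above 1 in 8 of the other 20. The autosomal partner of Pdha1, Pdhb, was at 151 to 377 FPKM there and at 95.3 to 420 in the others. What set these libraries apart was not tested. Among the 20 others the Spearman correlation of Pdha1 with the chromosome X share was 0.70, and among the 26 8-cell blastomeres 0.15, as descriptions over blastomeres that share embryos. Pdha1 was the least variable member in 8-cell blastomeres. Its highest value was 3.18 times its lowest, against 6.79 times among the 20 4-cell blastomeres. Without the lowest blastomere of each stage these ratios were 2.96 and 4.17.

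**Figure D2:**
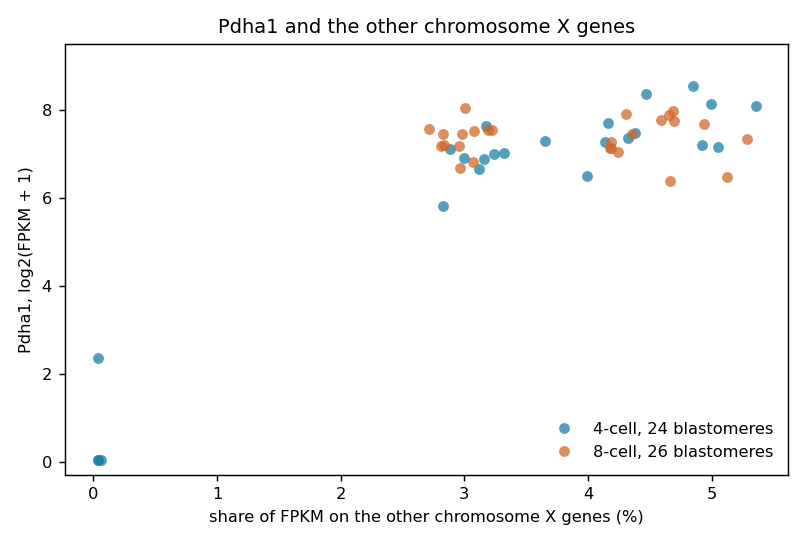
Pdha1, as log2(FPKM + 1), against the share of all FPKM that lies on the other chromosome X genes (%), for 24 4-cell and 26 8-cell blastomeres. The 4 blastomeres under 1% are all from the 4-cell stage and hold the lowest Pdha1 values.

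The glucose genes were low and above FPKM 1 in part of the blastomeres. Slc2a1, the carrier GLUT1, was listed at 0 in 19 of 24 4-cell and 18 of 26 8-cell blastomeres. The highest values were 22.1 and 38.5 FPKM, and the median was 0 at both stages. A count of 0 allows up to 3 fragments, which for Slc2a1 is 0.0692 to 0.170 FPKM among 4-cell and 0.0537 to 0.499 among 8-cell blastomeres. Without the blastomere of lowest denominator the highest 8-cell limit was 0.0929. This limit covers counting error only, since reads carried no molecular identifiers. Slc2a1 was above FPKM 1 in 5 and 8 blastomeres, none of them gene-poor, and its log2 difference was 0.21.

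Slc2a3, the high-affinity carrier GLUT3, ran from 0 through 6.48 to 42.1 FPKM at the 4-cell stage and from 0 through 6.00 to 50.5 at the 8-cell stage, with a log2 difference of 0.06. It was above FPKM 1 in 17 of 24 and 19 of 26. In 13 and 14 blastomeres it was above 1 without Slc2a1, and in 1 and 3 the reverse held. Both carriers were above 1 in 4 and 5 blastomeres, and neither was in 6 and 4. Slc2a8, an intracellular carrier, was the most abundant of the other glucose carriers, with medians of 7.82 and 13.1 FPKM, and was above 1 in 19 of 24 and 23 of 26.

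Hk1, the hexokinase that phosphorylates glucose, came closest to passing among the glucose genes. It ran from 0 through 2.21 to 18.3 FPKM at the 4-cell stage and from 0 through 5.77 to 21.9 at the 8-cell stage, and was above FPKM 1 in 16 of 24 and 21 of 26. Its log2 difference was 0.80. It passed 2-fold under other settings, at 1.14 without the gene-poor blastomeres and at 1.08 between medians of log2 values. All 3 gene-poor 8-cell blastomeres were at or below 0.0437 FPKM. The exons of Hk1 and of its antisense gene Hk1os share 179 bases, to which the same limit applies. Hk1os reached 22.2 FPKM in 4-cell and 13.8 in 8-cell blastomeres, the first above the highest Hk1 value of that stage, and its part in the Hk1 values was not tested. Hk2, the second hexokinase, passed 2-fold, with a log2 difference of 1.03, or 0.94 without the gene-poor blastomeres, and had medians of 0.312 and 1.60 FPKM. Hk1 was higher than Hk2 in 16 of 24 and 17 of 26 blastomeres.

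Pfkl, the liver type phosphofructokinase, was listed at 0 in 13 of 24 and 13 of 26 blastomeres. The median was 0 at the 4-cell stage and 0.101 at the 8-cell stage, the highest values were 27.7 and 16.6 FPKM, and the log2 difference was -0.17. The muscle and platelet types were above FPKM 1 in fewer blastomeres. Pfkm was above FPKM 1 in 0 of 24 and 3 of 26 blastomeres, and Pfkp in 3 and 6. The highest Pfkm value at the 4-cell stage was 0.0922 FPKM.

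Fructose bisphosphatase, which turns fructose 1,6-bisphosphate back to fructose 6-phosphate, was read almost wholly from Fbp2, the muscle type. Fbp1, the liver type, was listed at 0 in 21 of 24 and 22 of 26 blastomeres, and above FPKM 1 in 2 and 1. Those values were 6.85 and 7.02 at the 4-cell stage and 11.5 at the 8-cell stage. Fbp2 was higher than Fbp1 in 22 of 24 4-cell blastomeres, both being at 0 in the other 2, and in 26 of 26 8-cell blastomeres. Fbp2 was also above Pfkl in the same numbers of blastomeres, 22 of 24 and 26 of 26.

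Fbp2 ran from 0 through a median of 110 to 463 FPKM at the 4-cell stage, and from 84.8 through 343 to 679 at the 8-cell stage. Its log2 difference was 1.83, more than that of 99.4% of all genes tested. Of the 8-cell blastomeres, 25 of 26 lay above the 4-cell median and 8 above the 4-cell highest value. Of the 4-cell blastomeres, 9 of 24 lay below the lowest 8-cell value. Both 4-cell blastomeres at 0 were gene-poor, and the third gene-poor one was at 50.5 FPKM. Without the gene-poor blastomeres the lowest 4-cell value was 20.1 FPKM and the log2 difference was 1.19, still past 2-fold. The 5 columns named NA were at 464 to 679 FPKM and ranked among the 8 highest, with the other 3 of these at 479 to 522. The other 21 8-cell columns ran from 84.8 through 255 to 522, and without the NA columns the difference was 1.64. Each of these omissions lowered the difference, and the gene-poor blastomeres and the NA columns were not left out together. Aldolase A, which splits the same fructose 1,6-bisphosphate, was of like abundance. Aldoa had medians of 227 and 240 FPKM, and Fbp2 was lower than it in 19 of 24 4-cell and higher in 21 of 26 8-cell blastomeres.

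**Figure D3:**
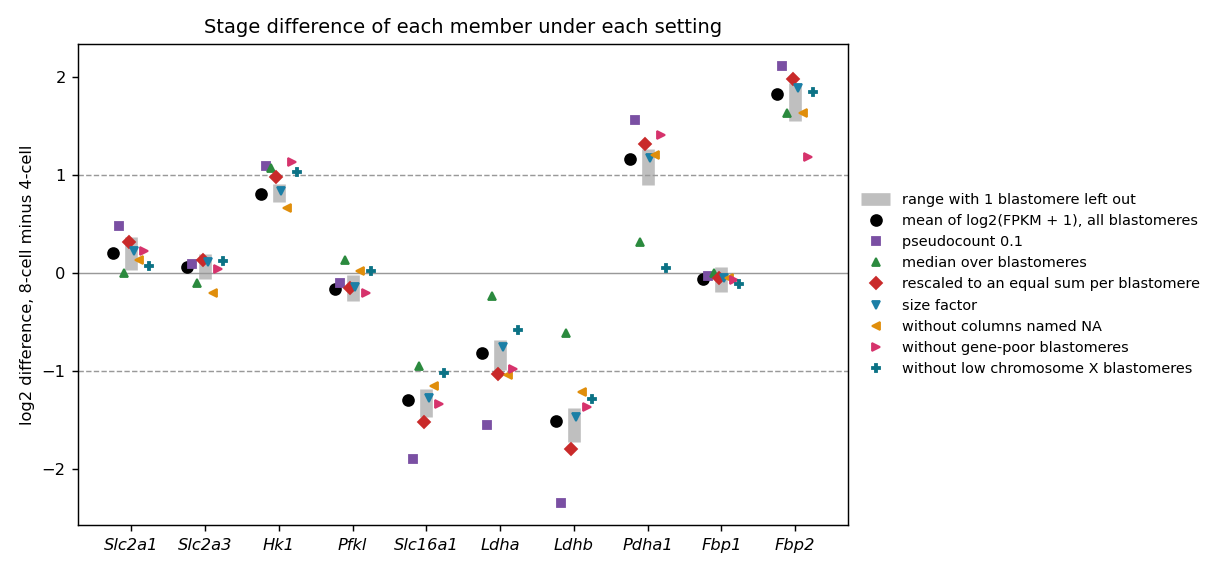
Log2 difference, 8-cell minus 4-cell, of each member with all blastomeres (black circles) and under 7 other settings; grey bars span the values with 1 blastomere left out, and dashed lines mark 2-fold. Fbp2 stays past 2-fold under every setting drawn (1.19 to 2.12), while Pdha1 drops to 0.05 without the 4 blastomeres low in chromosome X transcripts. Each setting was applied alone, so the gene-poor blastomeres and the columns named NA are not left out together.

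The spread of Fbp2 from blastomere to blastomere was wide for so abundant a transcript, and narrower at the 8-cell stage. Its coefficient of variation, the SD over the mean across blastomeres, was 0.84 among 4-cell and 0.47 among 8-cell blastomeres. With no column tied to an embryo, this spread mixes differences between embryos with those between blastomeres of an embryo. At the 4-cell stage, 97.9% of the 1019 genes with a mean FPKM of 100 or more had a lower value, with a median of 0.40. At the 8-cell stage 76.2% of 993 such genes did, with a median of 0.37. Without the gene-poor blastomeres it was 0.73 and 0.48. Rescaled to an equal sum per blastomere it was 0.80 and 0.47. The third quartile was 3.34 times the first at the 4-cell stage and 2.46 times at the 8-cell stage. Among blastomeres that were not gene-poor the highest value was 23.1 times the lowest among 4-cell and 8.01 times among 8-cell blastomeres. Each ratio rests on 1 low blastomere, and without it they were 9.91 and 5.06.

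Of the other members, Pdha1 had a coefficient of variation of 0.69 at the 4-cell stage, 0.47 without the 4 blastomeres low in chromosome X transcripts, and 0.28 at the 8-cell stage. Ldha and Ldhb went the other way, from 0.92 to 1.11 and from 0.72 to 1.09. Slc16a1 had 0.76 and 0.88. The glucose genes had 2.39 and 2.51 for Slc2a1, 1.17 and 1.27 for Slc2a3, 1.23 and 0.90 for Hk1 and 1.60 and 1.46 for Pfkl. Fbp1, with 3.38 and 4.58, rests on 2 and 1 blastomeres.

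**Figure D4:**
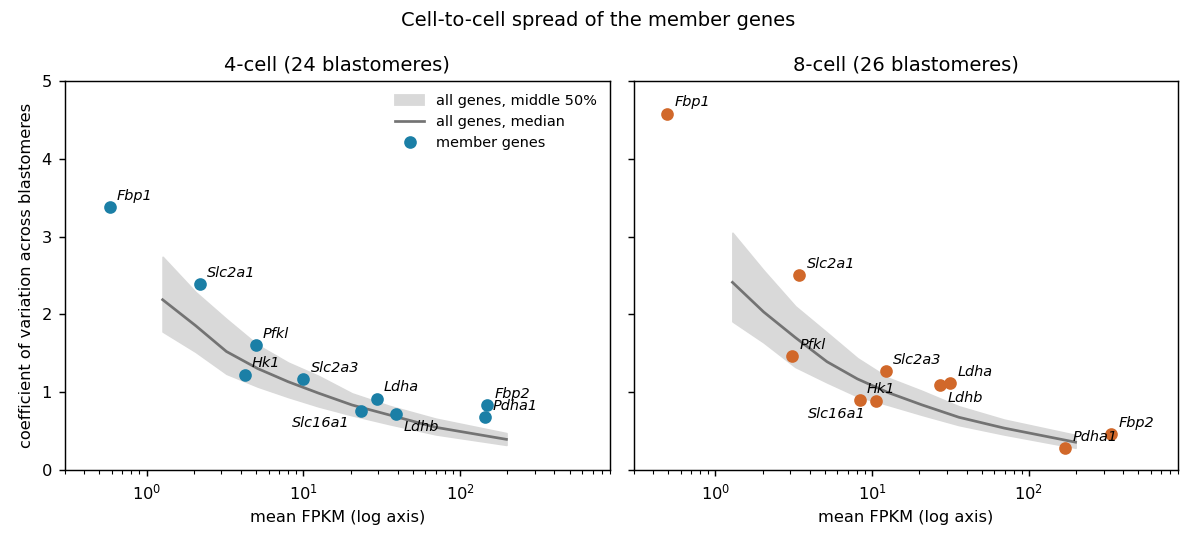
Coefficient of variation across blastomeres against mean FPKM (log axis), by stage; the grey line and band are the median and middle 50% of all genes with a mean FPKM of at least 1 within bins of mean FPKM. Above the band lie Fbp2 (0.84), Pdha1 (0.69) and, close to its edge, Slc2a1 (2.39) and Ldha (0.92) at the 4-cell stage, and Ldha (1.11), Ldhb (1.09), Slc2a1 (2.51) and Slc2a3 (1.27) at the 8-cell stage, where Fbp2 (0.47) lies to the right of the band's last bin and near its upper edge.

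Fbp2 went with the number of genes detected at the 4-cell stage. The Spearman correlation of Fbp2 with the number of genes above FPKM 1 was 0.67 over 24 blastomeres, 0.54 without the 3 gene-poor ones, and 0.18 over the 26 8-cell blastomeres. With the FPKM denominator it was 0.00 and 0.07. The part of gene detection in the spread of Fbp2 was not tested. Slc2a3, at 0.70, and Ldha, at 0.54, went with the number of genes too at the 4-cell stage, and Ldha did at the 8-cell stage, at 0.66. Among the members, the highest 4-cell correlation of Fbp2 was with Slc2a3, at 0.60, and it was 0.44 without the gene-poor blastomeres. The lowest was with Slc16a1, at -0.42, and without the gene-poor blastomeres it was with Pfkl, at -0.65, with Slc16a1 at -0.47. At the 8-cell stage the highest was 0.21 with Slc2a3 and the lowest -0.32 with Pdha1 and with Ldhb. Without the gene-poor blastomeres these were 0.25, -0.38 and -0.41. Fbp1, at 0 in most blastomeres, was left out of these correlations.

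**Figure D5:**
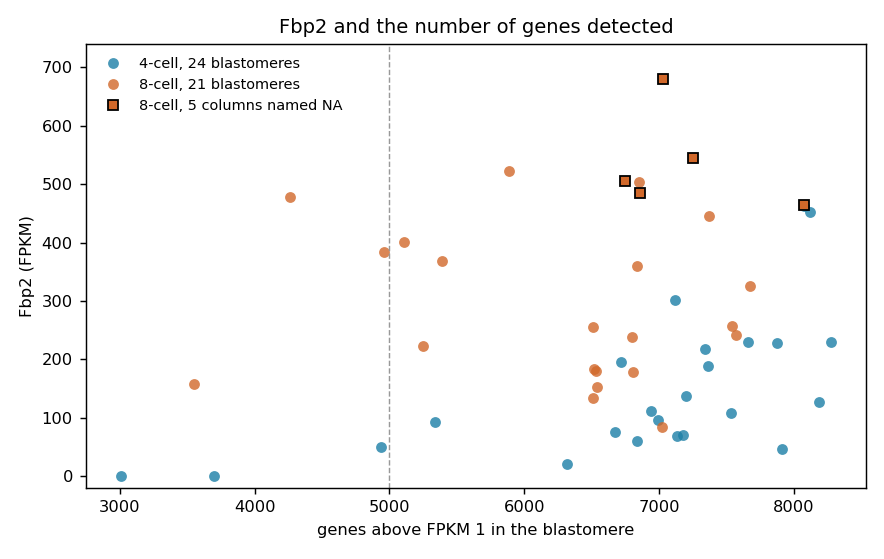
Fbp2 (FPKM) against the number of genes above FPKM 1 in each blastomere; squares are the 5 8-cell columns named NA, and the dashed line marks 5000 genes. The 2 blastomeres at 0 FPKM are 4-cell blastomeres left of the line, and the 5 squares lie between 464 and 679 FPKM.

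The genes most like Fbp2 differed by stage. Among 6878 genes above FPKM 1 in at least 12 of the 24 4-cell blastomeres, the highest Spearman correlations were with the cytokine gene Mif (0.89), the oligosaccharyltransferase subunit Krtcap2 (0.88), the mitochondrial ribosome gene Aurkaip1 (0.88), Cdkn2aipnl (0.87) and the acidic nuclear phosphoprotein gene Anp32a (0.85). Without the gene-poor blastomeres these were 0.79 to 0.85. Over the 8-cell blastomeres these genes had 0.49, 0.42, 0.18, -0.29 and 0.04. Among 6325 genes above FPKM 1 in at least 13 of the 26 8-cell blastomeres, the highest were Gpank1 (0.77), the helicase gene Ddx39b (0.72), the ribosome assembly gene Mrto4 (0.70), the RNA exosome gene Exosc5 (0.70) and the adenine salvage gene Aprt (0.70). At the 4-cell stage these had -0.20, 0.53, 0.40, 0.51 and 0.82. The highest of so many correlations are high by selection, and the blastomeres share embryos and depth.

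The other pathway genes were held to the same 2-fold rule. Of 88 other genes on the pathway lists, 67 were listed in both tables and above FPKM 1 somewhere. Of these, 2 passed 2-fold toward the 8-cell stage and 2 toward the 4-cell stage, and 63 passed in neither direction. Among all 13041 genes 4.75% passed toward the 8-cell stage and 7.05% toward the 4-cell stage. Without the gene-poor blastomeres, 0 of the 67 were higher at the 8-cell stage and 4 lower, namely Ldhc, Gyg, Pfkfb3 and Dld. Among all 13041 genes that setting gave 549 higher and 1032 lower. With all blastomeres, those higher at the 8-cell stage were Hk2 and Pkm, the pyruvate kinase of the last glycolytic step. Pkm had medians of 21.5 and 24.4 FPKM, was above 1 in 18 of 24 and 24 of 26, and had a log2 difference of 1.06, or 0.91 without the gene-poor blastomeres. Those lower were Ldhc and Gyg, the glycogenin that primes glycogen, with a log2 difference of -1.11 and above FPKM 1 in 12 of 24 and 6 of 26.

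By list, with all blastomeres, 2 of 20 other glycolytic enzymes were higher and 0 lower, and 0 of 4 other glucose carriers passed in either direction. The 2 were Hk2 and Pkm, and neither passed without the gene-poor blastomeres. The shares of all 13041 genes were 4.75% higher and 7.05% lower. Of 17 other pyruvate and lactate genes 0 were higher and 1 lower, and of 10 glycogen genes likewise 0 and 1. None of 7 malate-aspartate shuttle genes, 7 pentose phosphate enzymes and 2 other gluconeogenic enzymes passed. The gene with the highest mean FPKM over all 50 columns in each of these lists did not pass with all blastomeres. Mpc2, a subunit of the mitochondrial pyruvate carrier, had medians of 313 and 220 FPKM and a log2 difference of -0.27. Mdh2, the mitochondrial malate dehydrogenase of the malate-aspartate shuttle, had 697 and 654 FPKM and -0.03. Taldo1, transaldolase of the pentose phosphate pathway, had 141 and 153 FPKM and 0.33. Ugp2, which makes the UDP-glucose that glycogen is built from, had 5.64 and 1.91 FPKM and -0.74. G6pc3, a glucose 6-phosphatase, had 12.6 and 20.1 FPKM and 0.99, which passed 2-fold with size factors, at 1.03, and rescaled to an equal sum per blastomere, at 1.29, but was 0.60 without the gene-poor blastomeres, 0.71 without the columns named NA and 0.89 without the blastomeres low in chromosome X transcripts. Pcx, the pyruvate carboxylase that opens gluconeogenesis from pyruvate, was above FPKM 1 in 2 of 24 and 1 of 26. The cytosolic Pck1 was in neither table.

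Some glycolytic genes share sequence with other places in the genome. Eno1, enolase, was above FPKM 1 in 0 of the 50 columns, and 59.3% of its 100-base exon windows matched elsewhere in the genome as well as at home. The same share was 84.2% for Pgam1, 84.1% for Gapdh and 81.9% for Pgk1. Reads from such windows could be lost where the other read of the pair does not place them. Pgam1 was nonetheless above FPKM 1 in all 50 columns and Gapdh in 23 of 24 and 24 of 26, and the part of shared sequence in the Eno1 values was not tested. Pgk1 is also on chromosome X, with values of 0, 0, 0.082 and 9.56 FPKM in the 4 blastomeres low in chromosome X transcripts. G6pdx, the first pentose phosphate enzyme, had 0, 0, 0 and 6.57 there, and the pyruvate dehydrogenase kinase Pdk3 was at 0 in all 4.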

How the data were processed

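Smart-seq2 libraries of blastomeres were sequenced as pairs of 100-nt reads. The authors aligned the reads to mm10 with STAR 2.5.1b, kept uniquely aligned ones, counted them on Refseq genes with HTSeq and deposited the gene values as FPKM, per the submitters' processing notes and the paper's methods. The stage of each table follows its name. The gene lengths and totals behind the FPKM values are not given in the sources used here. Repeat tables were not used.

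The members and gene lists were chosen with earlier results of these data known. Entrez identifiers were matched to RefSeq (GRCm38.p6), 15200 of 15218 and 15320 of 15342. Stage differences are those of mean log2(FPKM + 1), 8-cell minus 4-cell, over 13041 genes, and a difference of 1 or more in size counts as past 2-fold. A log2 fold on this scale understates changes of low genes. Named beside the members were list genes past 2-fold or with the highest mean FPKM in their list, and the 5 genes most like Fbp2 per stage. Other genes named in the text, such as Slc16a3, Pfkm, Pfkp, Bsg, Pdhb, Eno1, Pgam1, Gapdh, Tpi1, Pfkfb3, Dld, Pcx, Pck1 and the chromosome X and Y genes, were chosen after their values were seen.

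FPKM denominators came from genes with 1 curated transcript, taking the most frequent value of 1 fragment, and 90.8% to 96.4% of values worth 0.5 to 10 fragments then lay within 0.1 of a whole number. Exon windows of 100 bases every 10 bases were aligned with minimap2 2.31. The calculations of stage difference, spread and denominators were tried on simulated data, and no outcome of that is given here. Python 3.11.15, pandas 2.3.3, numpy 2.4.6 and scipy 1.17.1 were used. Lineage and embryo comparisons were left out, since no column's name ties it to an embryo, and column order and values were not used for that.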

Additional observations from a re-analysis of the deposited data

How the results depend on the processing

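No paired analysis was possible because no replicate, embryo or lineage number stands on any column. A change of side here means crossing 2-fold, with no test behind it. The stage difference of Hk1 (0.80) passed 2-fold at 1.09 with a pseudocount of 0.1, at 1.08 between medians, at 1.14 without gene-poor blastomeres and at 1.03 without the 4 blastomeres low in chromosome X transcripts, the last chosen after seeing the data. That of Ldha (-0.81) passed at -1.55 with a pseudocount of 0.1, at -1.03 rescaled to an equal sum per blastomere and at -1.04 without the columns named NA, but was -0.24 between medians and -0.58 without the 4 blastomeres low in chromosome X transcripts. Between medians, Slc16a1 (-0.95), Ldhb (-0.61) and Pdha1 (0.32) no longer passed. Without the 4 blastomeres low in chromosome X transcripts Pdha1 was at 0.055, since those hold its lowest values, and with any single blastomere left out it lay between 0.90 and 1.27. The cause of the other crossings was not tested. No difference past 2-fold changed sign, and Slc2a1, Slc2a3, Pfkl, Fbp1 and Fbp2 crossed 2-fold under none of these settings. Each setting was applied alone. Leaving out the gene-poor blastomeres and the columns named NA together, each of which lowered the Fbp2 difference, was not tried.

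With a pseudocount of 0.1, 1352 genes passed toward the 8-cell and 2255 toward the 4-cell stage, in place of 620 and 919. The filter on low values changed neither count, since a gene never above FPKM 1 cannot reach 2-fold with a pseudocount of 1. Rescaling to an equal sum gave 919 and 1349, and size factors gave 665 and 880. The rescaled sum of 1e+06 is above every sum as listed, 266873 to 520671 FPKM, so the pseudocount of 1 also weighs less there. The share of passing genes that were higher at the 8-cell stage was 34.6% to 43.0% over the settings. With a pseudocount of 0.1 the 4-cell median of the pyruvate and lactate side less the glucose side was 4.42 in place of 2.95. The coefficient of variation of Fbp2 stayed within 1.5 times of its value in all 10 alternatives over both stages. Of the 67 other pathway genes, 0 to 3 passed toward the 8-cell and 2 to 4 toward the 4-cell stage over 6 settings. A listed 0 bounds the fragments counted and not the transcripts in the cell, and with each stage as 1 sample no difference has an error.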
